A study of Mus musculus with 10 samples.

Results

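The 9 genes described here are cyclins of the cell division cycle, namely the D-type cyclins Ccnd1, Ccnd2 and Ccnd3, the E-type cyclins Ccne1 and Ccne2, the A-type cyclin Ccna2, the B-type cyclins Ccnb1 and Ccnb2, and Ccnf. They were taken by name from the 54838 genes listed for each library, and all 9 passed the filter on low counts that left 14719 genes for testing. Libraries came from intestinal crypts of 5 WT and 5 Arid3a cKO mice. In the cKO animals (VillinCre-ERT2+/−; Arid3a fl/fl) the Cre recombinase is driven by Villin and so acts in intestinal epithelial cells, while other cells of the crypt preparation keep the gene. Both genotypes received tamoxifen on 3 days in a row, and crypts were taken 1 month after the first injection; the age of the animals, and whether the WT animals carried the Cre transgene, are not given in the sources used here. The animal identifiers in the labels begin differently in the 2 genotypes. What these beginnings stand for is not stated, and whatever goes with them cannot be told apart from genotype. Arid3a encodes an A+T-rich DNA binding factor, and the authors report more of its RNA in villi than in crypts, with expression reaching crypt progenitors. The comparison asks how the loss of Arid3a goes with the expression of genes that drive proliferation.

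Cyclins are the regulatory subunits of cyclin-dependent kinases (CDKs). D-type cyclins respond to growth signals in G1 and pair with CDK4 and CDK6 to phosphorylate the retinoblastoma protein, which releases E2F factors. E-type cyclins, which are E2F targets, then activate CDK2 at entry into S phase, cyclin A2 serves S phase and G2, and B-type cyclins with CDK1 drive mitosis. Cyclin F binds no CDK and is instead the substrate receptor of a ubiquitin ligase active in G2. In the intestinal crypt, dividing stem and transit-amplifying cells express these genes, and the WNT pathway is known to act on D-type cyclins there.

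The library totals were 27050455 to 28152743 expected counts in WT and 28314069 to 31053622 in cKO crypts. Arid3a was counted 55 to 81 times in WT and 9 to 31 times in cKO libraries (log2 fold change −1.84, edgeR adjusted p = 0.00204), with no overlap. Levels of the cyclins are given in CPM, read counts brought to a common library size after scaling by the trimmed mean of M values (TMM), and fold changes are cKO against WT on the log2 scale with their standard error (SE) and 95% confidence interval. Epcam, a surface protein of all epithelial cells, was abundant in both genotypes, with 1250 ± 81.4 CPM in the WT group and 1414 ± 27.9 CPM in the cKO group (SD, n = 5 each). The intestinal cell lists moved with genotype. All 7 enterocyte markers were higher in cKO, their sum being 1149 to 5767 CPM in WT and 7148 to 13650 CPM in cKO libraries. Of the 6 stem and transit-amplifying markers 3 were lower (Olfm4, Ascl2 and Smoc2). Lgr5 (log2 fold change −0.17, edgeR adjusted p = 0.653), Mki67 (−0.19, edgeR adjusted p = 0.172) and Top2a (−0.25, edgeR adjusted p = 0.0787) were not called. The sums of this list (5276 to 8337 CPM in WT and 4129 to 5971 CPM in cKO) were mostly Olfm4 (means 5778 and 4077 CPM). Of 4 Paneth cell markers 3 were lower (7608 to 13580 and 5499 to 7434 CPM). Of the 7 epithelial markers 2 were higher, Vil1 (log2 fold change 0.80) and Krt20 (1.47), and 5 were not called. Their sums were 4881 to 5692 CPM in WT and 5872 to 6650 CPM in cKO. Of 5 goblet cell markers 1 was lower, Spdef (−0.47), and the other 4 had estimates above 0 and were not called (sums 2301 to 2936 and 2839 to 3398 CPM). Lists of cells that the crypt preparation could still hold were low. B and plasma cell markers summed to 21.75 to 65.1 CPM in WT and 7.798 to 23.43 CPM in cKO (2 of 6 lower), T cell markers to 19.36 to 65.28 and 28.92 to 68.04 CPM (1 of 6 lower), and myeloid markers to 26.45 to 69.11 and 14.58 to 93.65 CPM (0 of 5 called). Fibroblast and muscle markers summed to 9.748 to 82.23 and 8.627 to 132.1 CPM (1 of 7 lower) and endothelial markers to 2.893 to 5.362 and 1.314 to 2.536 CPM (1 of 2 tested lower). None of these markers was at 0 in every library. The part of these shifts in the cyclin results was not tested, and in bulk crypts fewer cells of a type and less RNA per cell cannot be told apart.

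Of the 9 cyclins, 4 fell in cKO crypts and 0 rose. These were Ccnd1, Ccnd2, Ccne1 and Ccne2, the cyclins of G1 and of entry into S phase other than Ccnd3. That is 44.4% of the cyclins, where 12.7% of all genes tested were called lower (15.6% higher, 28.3% in either direction). The estimates of Ccnd3 (−0.39) and Ccnf (−0.35), which were not called, were close to that of Ccnd2 (−0.37). The calls alone therefore do not divide the cyclins by phase. The fitted log2 fold change was below 0 for all 9, and for 7964 of the 14719 genes tested. Its median was −0.37 over the cyclins and −0.03 over all genes tested. For Ccnb2 the sign turned when WT replicate 2, cKO replicate 4 or cKO replicate 5 was left out. WT and cKO libraries did not overlap for 3 cyclins (33.3%), all lower, where 7.63% of all genes did so in that direction and 19.6% in either. WT replicates 3 and 4 stood apart from the other WT libraries in having the lowest enterocyte sums (1819 and 1149 CPM, against 3008 to 5767 CPM). With both left out, 3 cyclins were called, and Ccne2 was the one lost (−0.47, edgeR adjusted p = 0.0626).

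**Figure D1:**
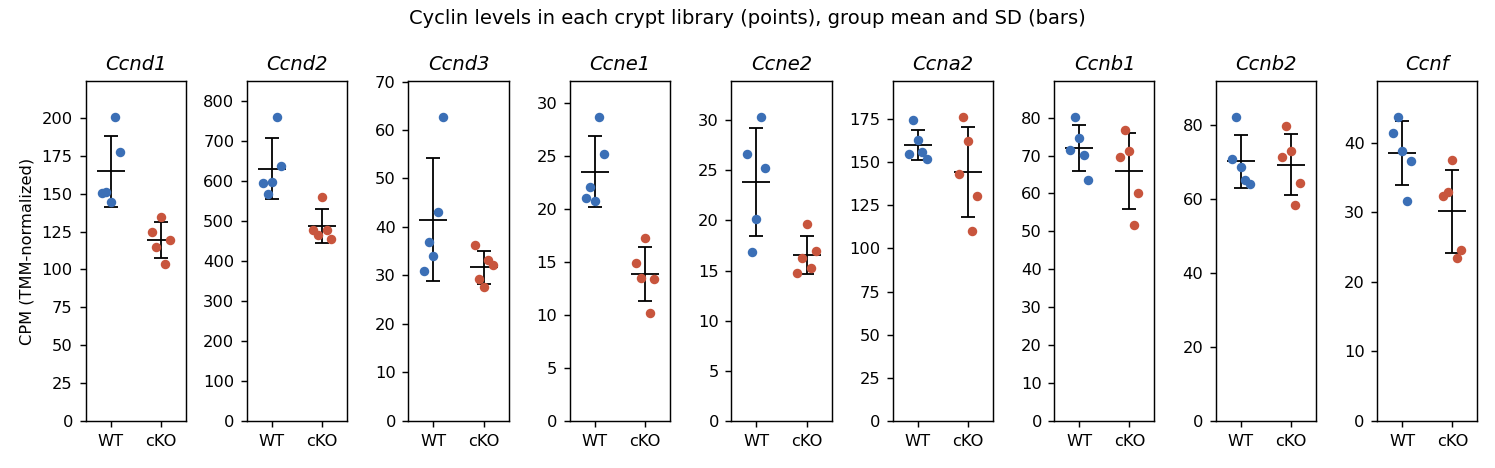
Levels of the 9 cyclins in CPM (vertical axes, each starting at 0 with its own scale) in the 5 WT libraries (blue points) and 5 cKO libraries (red points), with the group mean and SD as black bars. The red points lie wholly below the blue points for Ccnd1, Ccnd2 and Ccne1, and the groups overlap for the other 6 cyclins.

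The D-type cyclins lie on chromosome 7 from 144929931 to 144939925 (Ccnd1, minus strand), chromosome 6 from 127125162 to 127152193 (Ccnd2, minus strand) and chromosome 17 from 47505051 to 47599691 (Ccnd3, plus strand) of GRCm38. Ccnd1, the cyclin most often tied to WNT signalling, was measured at 150.7, 151.2, 144.4, 200.3 and 177.4 CPM in WT replicates 1 to 5. In cKO replicates 1 to 5 it was at 124.6, 114.6, 134.6, 103.3 and 119.7 CPM. Every cKO library therefore lay below the lowest WT library. The mean of 164.8 ± 23.52 CPM in WT compared with 119.4 ± 11.64 CPM in cKO (SD over 5 libraries), and the log2 fold change was −0.47 (SE 0.10, 95% interval −0.68 to −0.25, edgeR adjusted p = 0.006). WT replicate 4, the library with the lowest enterocyte sum, held the highest Ccnd1 level and cKO replicate 4 the lowest.

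Ccnd2 was the most abundant of the 9 cyclins in both genotypes. Its WT libraries held 594.1, 567.5, 597.6, 759.2 and 637.8 CPM in the order of their replicate numbers. The cKO libraries held 477.3, 466.3, 560.7, 477.8 and 455.2 CPM. The groups were separated, though narrowly, since cKO replicate 3 lay just under WT replicate 2. Ccnd2 fell from 631.2 ± 75.83 to 487.5 ± 41.98 CPM (SD, n = 5 each), by 0.37 on the log2 scale (SE 0.09, 95% interval −0.57 to −0.18, edgeR adjusted p = 0.0105). With 1 surrogate variable in the fit neither passed the threshold, Ccnd1 at a log2 fold change of −0.40 (edgeR adjusted p = 0.0639) and Ccnd2 at −0.26 (edgeR adjusted p = 0.129).

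Ccnd3, the third D-type cyclin, did not pass the threshold. It was at 30.95, 36.92, 34.00, 43.14 and 62.59 CPM in WT replicates 1 to 5. Its cKO values were 36.22, 29.20, 27.66, 33.09 and 32.13 CPM. WT replicate 5 stood well above the other 9 libraries, and the groups overlapped. The estimate, −0.39 (SE 0.17, 95% interval −0.77 to −0.02, edgeR adjusted p = 0.11), rested in part on WT replicate 5, without which it was −0.18 (edgeR adjusted p = 0.234). Without a difference that passes a test, equal or unequal change of the 3 D-type cyclins was not shown.

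Ccne1 had the lowest log2 fold change of the 9 cyclins in the count fit. It lies on chromosome 7 from 38097984 to 38107534 (minus strand) and no other annotated gene overlaps it. The WT libraries held 21.06, 22.14, 20.77, 28.67 and 25.17 CPM. The cKO libraries held 14.89, 13.53, 17.31, 10.24 and 13.44 CPM. All 5 cKO libraries were lower than all 5 WT libraries, with cKO replicate 4 again the lowest and WT replicate 4 again the highest. The WT mean was 23.56 ± 3.345 CPM and the cKO mean 13.88 ± 2.569 CPM (SD over 5 libraries), and the log2 fold change was −0.76 (SE 0.14, 95% interval −1.06 to −0.47, edgeR adjusted p = 0.00242). Over the 21 alternatives it lay between −0.90 and −0.67 and passed the threshold in each of them.

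Ccne2, on chromosome 4 from 11191351 to 11204779 (plus strand), is the second E-type cyclin. Its WT values were 26.67, 16.81, 20.19, 30.28 and 25.24 CPM. Its cKO values were 14.76, 16.30, 19.62, 15.27 and 16.96 CPM. The groups overlapped through WT replicate 2, which was as low as the cKO libraries. The mean fell from 23.84 ± 5.344 to 16.58 ± 1.903 CPM (SD, n = 5 each), by 0.52 on the log2 scale (SE 0.15, 95% interval −0.84 to −0.21, edgeR adjusted p = 0.019). The call was lost with 1 surrogate variable (−0.38, edgeR adjusted p = 0.198) and under the replicate block (−0.50, edgeR adjusted p = 0.0533). The size of the fall depended on how transcript length was handled. The average length of Ccne2 transcripts, weighted by their estimated abundance, was 1855.64 ± 373 bases in WT and 2368.46 ± 326 bases in cKO libraries (SD, n = 5 each, overlapping), and with the effective length as an offset the log2 fold change was −0.90 (edgeR adjusted p = 0.00508), below that of Ccne1 in the same fit (−0.72).

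The cyclins of S phase, G2 and mitosis did not pass the threshold. Ccna2, on chromosome 3 from 36564865 to 36572150 (minus strand), was at 154.8, 174.4, 162.7, 156.2 and 152.1 CPM in the WT libraries. The cKO libraries gave 143.4, 176.0, 162.2, 110.1 and 130.2 CPM. In 3 cKO libraries the level was below every WT library and in 1 it was above every WT library, so the cKO values were spread widely around a log2 fold change of −0.15 (SE 0.11, 95% interval −0.39 to 0.09, edgeR adjusted p = 0.329). The estimate was −0.06 without cKO replicate 4 and −0.23 without cKO replicate 2.

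Ccnb1, on chromosome 13 from 100778650 to 100786570 (minus strand), varied between libraries much as Ccna2 did. Its WT values were 71.40, 80.04, 74.52, 70.04 and 63.57 CPM. In cKO libraries it was at 69.62, 76.72, 71.30, 51.76 and 60.02 CPM. The groups overlapped (log2 fold change −0.13, SE 0.10, 95% interval −0.35 to 0.10, edgeR adjusted p = 0.38). Without cKO replicate 4 the estimate was −0.05, without WT replicate 2 it was −0.08, and without cKO replicate 2 it was −0.19. Ccnb2, on chromosome 9 from 70407692 to 70421547 (minus strand), gave 70.78, 81.96, 68.55, 65.19 and 63.94 CPM in WT. In cKO libraries it gave 71.40, 79.52, 72.88, 58.25 and 64.15 CPM. The means of 70.08 ± 7.173 and 69.24 ± 8.221 CPM (SD, n = 5 each) nearly coincided, and the 95% interval of the log2 fold change was −0.22 to 0.19 (estimate −0.02, SE 0.09, edgeR adjusted p = 0.907).

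Ccnf lies on chromosome 17 from 24222198 to 24251484 (minus strand). It was measured at 41.46, 43.63, 38.79, 31.55 and 37.35 CPM in WT libraries. The cKO libraries held 32.38, 32.96, 37.49, 23.40 and 24.64 CPM. WT replicates 4 and 5 lay below the highest cKO library, so the groups overlapped. The estimate of −0.35 (SE 0.13, 95% interval −0.64 to −0.07, edgeR adjusted p = 0.0632) missed the threshold, and passed it without WT replicate 4 (−0.42, edgeR adjusted p = 0.0447), without cKO replicate 3 (−0.44, edgeR adjusted p = 0.0283) or with 1 surrogate variable (−0.53, edgeR adjusted p = 0.0456).

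**Figure D2:**
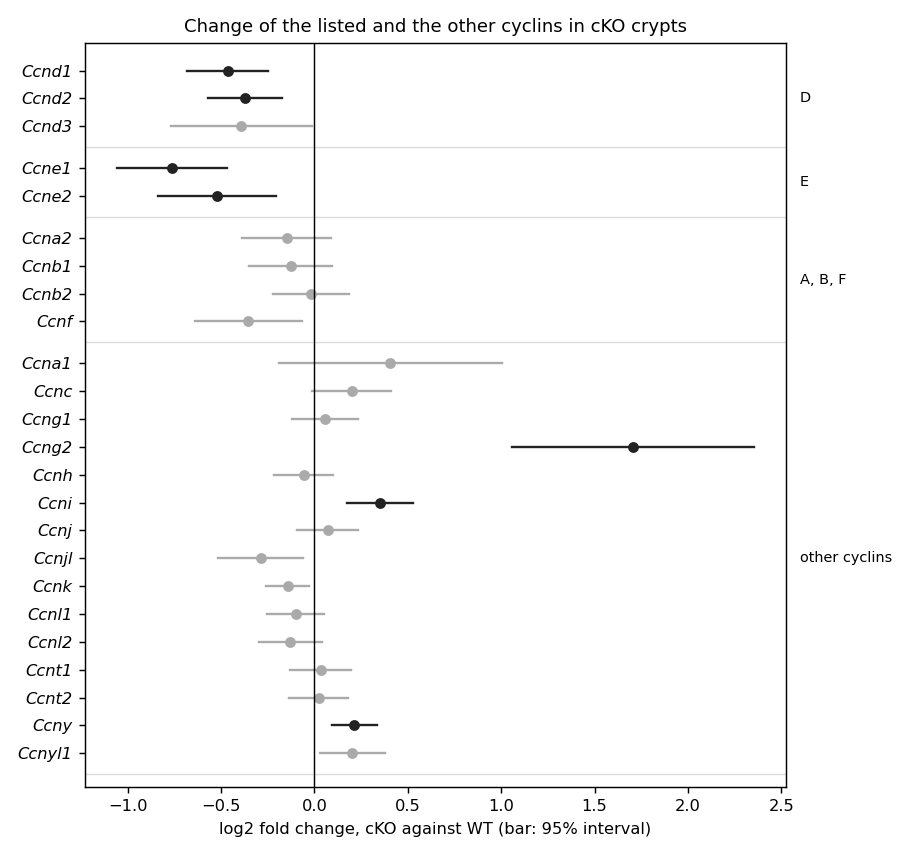
Log2 fold change of each cyclin in cKO against WT crypts (points) with its 95% interval (bars), for the 9 cyclins in 3 blocks and the 15 tested among 17 other cyclins. Black marks an edgeR adjusted p below 0.05, which 4 of the 9 passed below 0 and Ccng2, Ccni and Ccny passed above 0.

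Whether the cyclins differed from one another in their change was tested on the log2 ratio of 2 cyclins within each library, which does not depend on how libraries are scaled. None of the 36 pairs passed the threshold after Benjamini-Hochberg adjustment (two-sided exact permutation tests), while 11 had an unadjusted p under 0.05 on CPM and 12 on TPM. The 5 lowest pairs reached the smallest p that 5 libraries against 5 allow (0.00794, adjusted p = 0.0571 in the exact permutation test), and Ccne1 was in each of them. At that smallest p, 5 pairs alone cannot pass among 36, so the lack of calls does not show that the cyclins changed alike. Relative to Ccna2, Ccne1 went from a log2 ratio of −2.75 ± 0.24 to −3.33 ± 0.19 (SD, n = 5 each). Its ratio to Ccnb1 was lower by a log2 difference of −0.62 and its ratio to Ccnb2 by −0.73. Compared with the D-type cyclins, the log2 ratio of Ccnd1 to Ccne1 was higher by 0.29 and that of Ccnd2 to Ccne1 by 0.38 in cKO libraries. The ratio of Ccnd1 to Ccne1 was nearly fixed in WT crypts (2.78 ± 0.03, SD, n = 5) and more spread in cKO crypts (3.07 ± 0.13, SD, n = 5). The ratio of Ccne1 to Ccne2 differed by −0.26 between the genotypes (exact permutation test, p = 0.119, adjusted p = 0.238).

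**Figure D3:**
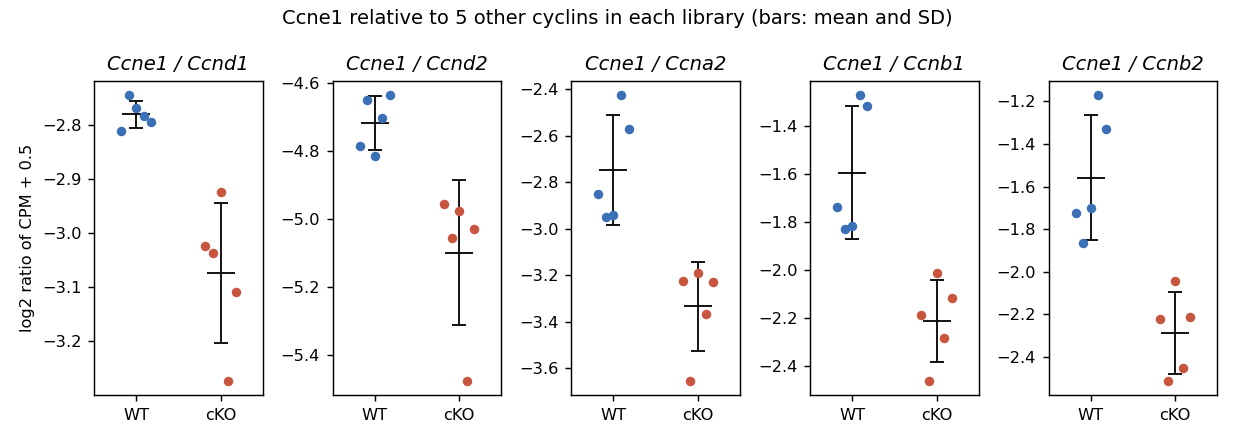
Log2 ratio of Ccne1 to 5 other cyclins in each library (CPM + 0.5; blue WT, red cKO; bars, mean and SD; each panel has its own axis, which does not start at 0). In all 5 panels the cKO points lie below the WT points; for Ccna2 the ratios run from −2.95 to −2.42 in WT and from −3.65 to −3.19 in cKO.

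Levels of different genes were compared in TPM, the deposited abundance per library, which divides by transcript length. In WT crypts the order was Ccnd2 (155.6 ± 33.7 TPM), Ccna2 (88.39 ± 7.605 TPM), Ccnb2 (63.15 ± 6.831 TPM), Ccnb1 (60.18 ± 6.926 TPM) and Ccnd1 (59.31 ± 11.48 TPM). Below them came Ccnd3 (29.68 ± 7.648 TPM), Ccne1 (18.66 ± 3.532 TPM), Ccne2 (18.01 ± 4.907 TPM) and Ccnf (17.06 ± 1.797 TPM; SD, n = 5 throughout). Neighbours in this order overlapped except Ccnd2 and Ccna2, Ccna2 and Ccnb2, and Ccnd1 and Ccnd3. In cKO crypts the first 6 kept the same order, and the lowest 3 were Ccnf (11.98 ± 2.127 TPM), Ccne1 (10.43 ± 1.653 TPM) and Ccne2 (8.91 ± 1.286 TPM), whose neighbours overlapped. The cKO levels of the others were 106.2 ± 11.78 TPM for Ccnd2, 68.85 ± 9.129 TPM for Ccna2, 58.16 ± 5.438 TPM for Ccnb2, 48.79 ± 4.904 TPM for Ccnb1, 39.73 ± 3.372 TPM for Ccnd1 and 21.83 ± 2.988 TPM for Ccnd3. In cKO crypts the neighbours without overlap were Ccnd2 and Ccna2, Ccnd1 and Ccnd3, and Ccnd3 and Ccnf.

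On the TPM scale, where the median of all genes also shifted, 7 of the 9 cyclins were called lower by limma on log2(TPM + 1), the 4 above together with Ccna2 (−0.36, adjusted p = 0.0168), Ccnb1 (−0.30, adjusted p = 0.0382) and Ccnf (−0.49, adjusted p = 0.0118). In that fit 18.8% of all genes were called lower, against 12.7% in the count fit. The median log2 fold change of all genes was −0.10 in that fit, against −0.03 in the count fit. Ccna2 and Ccnb1 were thus called on the TPM scale and not on counts. With the effective length as an offset in the count fit, Ccna2 (−0.24, edgeR adjusted p = 0.0924) and Ccnb1 (−0.19, edgeR adjusted p = 0.179) were not called either. The share of each gene within the D type overlapped between the genotypes. Ccnd2 made up 63.5 ± 2.89% of D-type TPM in WT and 63.2 ± 2.06% in cKO crypts, Ccnd1 24.29 ± 0.959% and 23.78 ± 2.17%, and Ccnd3 12.21 ± 2.66% and 13.01 ± 1.26% (SD, n = 5 each). The D-type sum was 244.6 ± 48.8 TPM in WT and 167.7 ± 14.8 TPM in cKO crypts, and the E-type sum was 36.68 ± 7.5 and 19.34 ± 1.71 TPM. Within the E type, Ccne1 held 51.38 ± 6.43% in WT and 53.83 ± 6.18% in cKO crypts. In the B type, Ccnb1 held 47.66 to 50.32% in WT and 44.56 to 46.42% in cKO libraries, without overlap, while on CPM the log2 ratio of Ccnb1 to Ccnb2 overlapped between the genotypes (difference −0.12, exact permutation test, p = 0.0159, adjusted p = 0.0816). The TPM share also moves with the estimated transcript length. For Ccnb1 this was 1644.2 ± 27.6 bases in WT and 1719.04 ± 53.5 bases in cKO libraries (SD, n = 5 each, overlapping), and for Ccnb2 1531 bases in every library.

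How the cyclins varied from animal to animal was described for 2 sets, drawn after their values were seen. The 6 pairs among Ccna2, Ccnb1, Ccnb2 and Ccnf had a Pearson's r of log2 CPM of 0.526 to 0.915 over the 5 WT libraries and of 0.863 to 0.993 over the 5 cKO libraries. The 6 pairs among Ccnd1, Ccnd2, Ccne1 and Ccne2 had an r of 0.623 to 0.992 in WT and of 0.615 to 0.984 in cKO libraries, with Ccnd1 and Ccne1 the closest in both. Between the sets the sign was opposite in the 2 genotypes. All 16 correlations were negative in WT libraries (−0.978 to −0.397) and positive in cKO libraries (0.226 to 0.859), so that Ccne1 and Ccnf, for example, had an r of −0.857 in WT and of 0.859 in cKO crypts. Over all 10 libraries, after the mean of each genotype was subtracted, the same 16 correlations ran from −0.359 to 0.509 with a median of −0.018, which averages these signs. In WT libraries all correlations between the sets lay below those within them, while in cKO libraries some lay above. The sets were drawn from these same values, which by itself favours a gap between them. These values describe 5 libraries a genotype in which all genes share the same RNA, depth and scaling, and the difference between the genotypes was not tested.

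**Figure D4:**
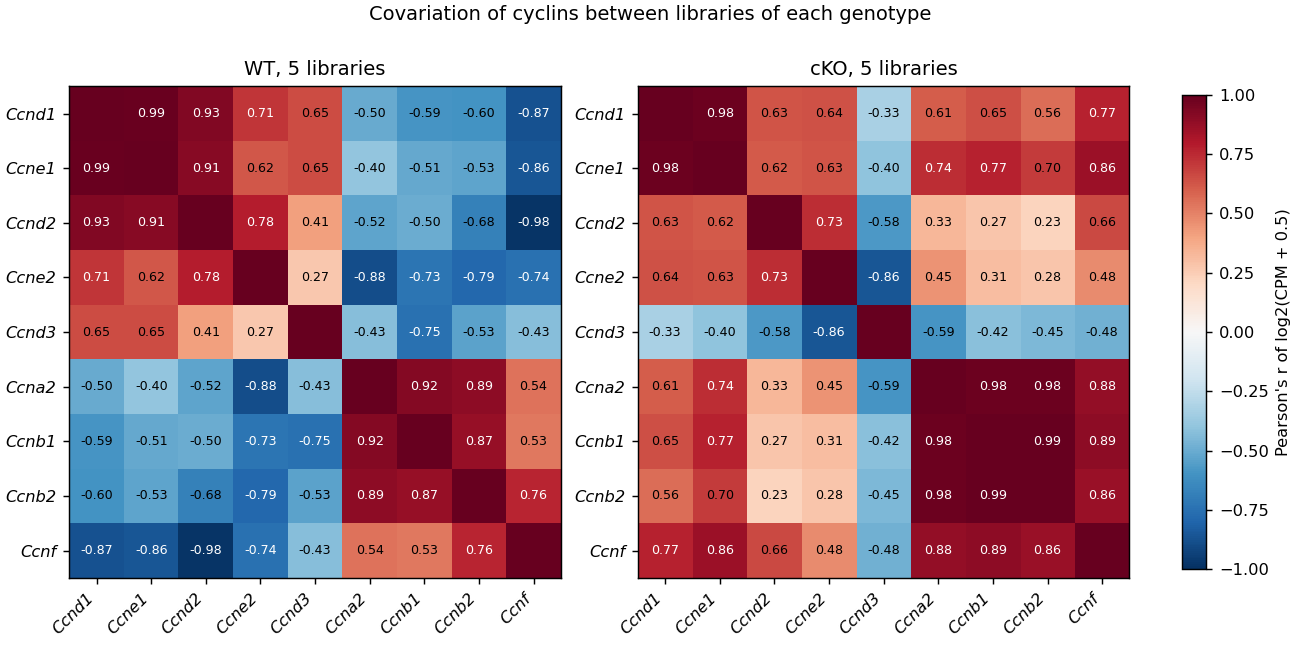
Pearson's r between each pair of the 9 cyclins over the 5 WT libraries (left) and the 5 cKO libraries (right), on log2(CPM + 0.5) (colour and number; red positive, blue negative). The 16 values between Ccnd1, Ccnd2, Ccne1 or Ccne2 and Ccna2, Ccnb1, Ccnb2 or Ccnf are all negative in WT (−0.978 to −0.397) and all positive in cKO libraries (0.226 to 0.859).

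The genes whose levels followed each cyclin most closely were read from the 10 libraries after the mean of each genotype was subtracted, without a test. Ccnb1 went with Plk1 (r 0.984), a kinase of mitosis, and Racgap1 (r 0.98), a factor of cytokinesis, and Ccna2 with Tacc3 (r 0.976) and Nuf2 (r 0.973), which act at the spindle and the kinetochore. Ccnb2 was closest to Cdca3 (r 0.974) and Lactb2 (r 0.973), and Ccnf to Pqlc3 (r 0.954) and Fam83d (r 0.95). Ccnd1 was closest to Dusp7 (r 0.964), a phosphatase of ERK kinases, and Tmem248 (r 0.947), and Ccne1 to Otud6b (r 0.963) and the same Tmem248 (r 0.961). Ccnd2 went with Hyal3 (r 0.94) and Ptpn1 (r 0.931), and Ccne2 with Taf4b (r 0.955) and Zfp445 (r 0.927). The closest to Ccnd3 were Creld2 (r 0.987) and Derl3 (r 0.983), which belong to the endoplasmic reticulum. Without the 2 libraries most extreme for the cyclin, r was 0.789 for Hyal3, 0.778 for Ptpn1, 0.879 for Taf4b and 0.794 for Zfp445. For the genes of the other cyclins it was then at least 0.903. All these genes are the highest of many compared over 10 libraries, which by itself favours a high r.

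Promoter windows, 250 bases before to 50 bases after the start site, were given by RefSeq (GRCm38.p6) for 5 of the 9 cyclins, while Ccnd1, Ccnd2, Ccne2 and Ccna2 had no entry. Those of Ccne1, the cyclin in all 5 pairs with the smallest p, and of Ccnb1, Ccnb2 and Ccnf, which varied together, are shown 5′ to 3′ on the strand of the gene, with every CCAAT and every TTTGAA in capitals. CCAAT is bound by NF-Y, and TTTGAA is a cell cycle homology region (CHR), the element that MuvB complexes bind. The windows are chr7:38107441-38107740, chr13:100786437-100786736, chr9:70421505-70421804 and chr17:24251360-24251659 in the order below, all on the minus strand.
Ccne1: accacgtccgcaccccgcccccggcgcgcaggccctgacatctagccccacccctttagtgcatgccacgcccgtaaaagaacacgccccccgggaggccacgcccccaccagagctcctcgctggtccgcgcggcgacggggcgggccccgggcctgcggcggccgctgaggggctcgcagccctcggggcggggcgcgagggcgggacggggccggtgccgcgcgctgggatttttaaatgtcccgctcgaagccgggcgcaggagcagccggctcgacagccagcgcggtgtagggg
Ccnb1: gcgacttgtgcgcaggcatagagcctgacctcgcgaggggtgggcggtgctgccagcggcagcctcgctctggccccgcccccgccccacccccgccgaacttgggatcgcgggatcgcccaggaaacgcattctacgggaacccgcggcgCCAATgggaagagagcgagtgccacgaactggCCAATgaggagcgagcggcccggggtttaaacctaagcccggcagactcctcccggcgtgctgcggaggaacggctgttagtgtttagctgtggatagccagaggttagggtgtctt
Ccnb2: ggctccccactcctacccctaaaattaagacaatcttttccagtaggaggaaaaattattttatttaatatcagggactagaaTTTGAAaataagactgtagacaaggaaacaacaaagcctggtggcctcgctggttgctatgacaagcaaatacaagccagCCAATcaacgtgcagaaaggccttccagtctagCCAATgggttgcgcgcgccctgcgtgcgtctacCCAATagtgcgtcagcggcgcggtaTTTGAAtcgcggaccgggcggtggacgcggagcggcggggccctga
Ccnf: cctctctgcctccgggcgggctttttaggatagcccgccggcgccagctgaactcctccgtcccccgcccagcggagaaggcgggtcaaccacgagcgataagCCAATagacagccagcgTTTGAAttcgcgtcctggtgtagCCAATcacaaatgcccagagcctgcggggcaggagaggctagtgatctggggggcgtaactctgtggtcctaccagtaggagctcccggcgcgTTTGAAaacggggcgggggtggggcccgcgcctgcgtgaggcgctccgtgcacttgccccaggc

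Counted from 0 at the start site, Ccnb2 has CCAAT at −87, −54 and −21 and TTTGAA at −167 and 4, Ccnb1 has CCAAT at −99 and −67, and Ccnf has CCAAT at −147 and −107 and TTTGAA at −130 and −14. The window of Ccne1 has neither. Ccnd3 has 2 windows on chromosome 17, of which the one from 47504801 to 47505100 has neither motif and the one from 47593217 to 47593516 has a CCAAT at −108. Both strands were searched, and CCAAT occurs in 37.4% and the CHR letters TTTGAA or TTCGAA in 19.2% of all 32851 windows of this length. The E2F letters TTTCCCGC, TTTCGCGC, TTTGCCGC or TTTGGCGC, held by 2.26% of all windows, were in none of the 6 windows of these cyclins. The A+T-rich letters ATTAAA (13.9% of all windows) were found at −187 of Ccnb2 and the letters CTTTGTT, 1 of 2 forms searched for TCF/LEF factors (CTTTGAT or CTTTGTT, 9.33% of all windows), at −138 of Ccnb2, both on the opposite strand. The motifs searched did not overlap in these windows. A match of letters is a description of the window and not a binding site.

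Of 17 other cyclins, 15 were tested, with a median log2 fold change of 0.06. Of these 15, 0 were called lower (12.7% of all genes tested) and 3 higher, a share near the 15.6% of all genes. This balance turned with the scaling, to 3 lower and 1 higher in both TPM fits and to 4 lower and 1 higher with library size only. Ccng2, an atypical cyclin known to be high in cells that stop dividing, held 5.259 to 16.98 CPM across WT libraries and 26.58 to 48.90 CPM across cKO libraries, and rose with a log2 fold change of 1.71 (SE 0.29, edgeR adjusted p = 0.00326). Ccni rose by 0.35 (SE 0.08, edgeR adjusted p = 0.00872) and Ccny, a membrane-bound cyclin, by 0.21 (SE 0.06, edgeR adjusted p = 0.0141). The call of Ccny was also lost with the effective length as an offset (0.11, edgeR adjusted p = 0.169). On TPM its estimate was 0.01 (limma adjusted p = 0.958) and that of Ccni 0.25 (limma adjusted p = 0.09). Ccnb3, a further B-type cyclin known from germ cells, was at 0 counts in all 10 libraries.

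Among 11 CDKs and their activators, 3 (27.3%) fell and 0 rose, with a median of −0.13, where 12.7% of all genes tested were called lower. The 3 were Cdk2, the partner of E- and A-type cyclins, from 59.25 ± 3.31 to 42.13 ± 2.41 CPM (log2 fold change −0.49, SE 0.06, edgeR adjusted p = 0.000736), Cdk1, the mitotic kinase, with −0.38 (SE 0.10, edgeR adjusted p = 0.0145), and Cdk4, the partner of D-type cyclins, with −0.33 (SE 0.06, edgeR adjusted p = 0.00361). WT and cKO libraries did not overlap for any of these 3. Cdk6, the other D-type partner, overlapped between the groups (−0.27, SE 0.12, edgeR adjusted p = 0.109).

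Inhibitors moved in both directions. Of 9 listed CDK inhibitors and inhibitory kinases 8 were tested, with a median of 0.07. Of these 8, 1 fell, a share near the 12.7% of all genes called lower. The 2 that rose stand beside 15.6% of all genes called higher, and with 8 genes an excess was not tested. Cdkn1a, which encodes p21, held 27.50 to 56.86 CPM across WT libraries and 58.15 to 81.88 CPM across cKO libraries, and rose (log2 fold change 0.78, SE 0.17, edgeR adjusted p = 0.00741). Cdkn1c, which encodes p57, rose by 0.60 (SE 0.16, edgeR adjusted p = 0.0177) from a low level (3.274 ± 0.463 CPM in WT libraries, 4.967 ± 1.01 CPM in cKO libraries). Its call was lost under 6 alternatives, with the effective length as an offset (0.44, edgeR adjusted p = 0.143), the replicate block (0.59, edgeR adjusted p = 0.0563), 1 surrogate variable (0.57, edgeR adjusted p = 0.101), both TPM fits (limma adjusted p = 0.26 and 0.265) and without WT replicates 3 and 4 (0.47, edgeR adjusted p = 0.11). Pkmyt1, a kinase that holds CDK1 inactive, fell by 0.73 (SE 0.08, edgeR adjusted p = 0.000378), from 24.00 ± 2.08 to 14.43 ± 0.877 CPM. Cdkn1b, which encodes p27, had means of 51.29 ± 4.63 CPM for WT and 53.95 ± 3.62 CPM for cKO (edgeR adjusted p = 0.499).

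Of 14 genes that form or regulate the ubiquitin ligases of cyclins and their inhibitors, 2 fell and 0 rose, with a median of −0.13. This is 14.3% of them, near the 12.7% of all genes called lower. Skp2, the receptor that targets p27, fell by 0.46 (SE 0.10, edgeR adjusted p = 0.0053) without overlap. Fbxo5, an inhibitor of the anaphase-promoting complex, had −0.22 (SE 0.07, edgeR adjusted p = 0.041), and this call was lost when any 1 library other than WT replicate 1 or cKO replicate 3 was left out.

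Of 19 E2F, pocket protein and MuvB factors, 7 (36.8%) fell and 2 (10.5%) rose, with a median of −0.20. The shares over all genes tested were 12.7% lower and 15.6% higher. The activator E2f1 fell from 22.02 ± 2.58 to 14.61 ± 1.43 CPM (log2 fold change −0.59, SE 0.10, edgeR adjusted p = 0.00188), Mybl2, a MuvB partner, by 0.57 (SE 0.10, edgeR adjusted p = 0.00282), and the repressor E2f7 by 0.42 (SE 0.11, edgeR adjusted p = 0.0157). Rb1, the retinoblastoma gene on which D-type cyclin kinases act, rose from 33.38 ± 6.33 to 51.42 ± 6.31 CPM (log2 fold change 0.62, SE 0.13, edgeR adjusted p = 0.00593). On TPM the estimate of Rb1 was 0.34 (limma adjusted p = 0.0883). With 1 surrogate variable in the fit, the calls of Rb1, E2f7, Skp2, Cdkn1a and Fbxo5 were also lost (edgeR adjusted p = 0.0745, 0.159, 0.0779, 0.0635 and 0.115). Without cKO replicate 5 the list had 5 calls, 4 lower and 1 higher.

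**Figure D5:**
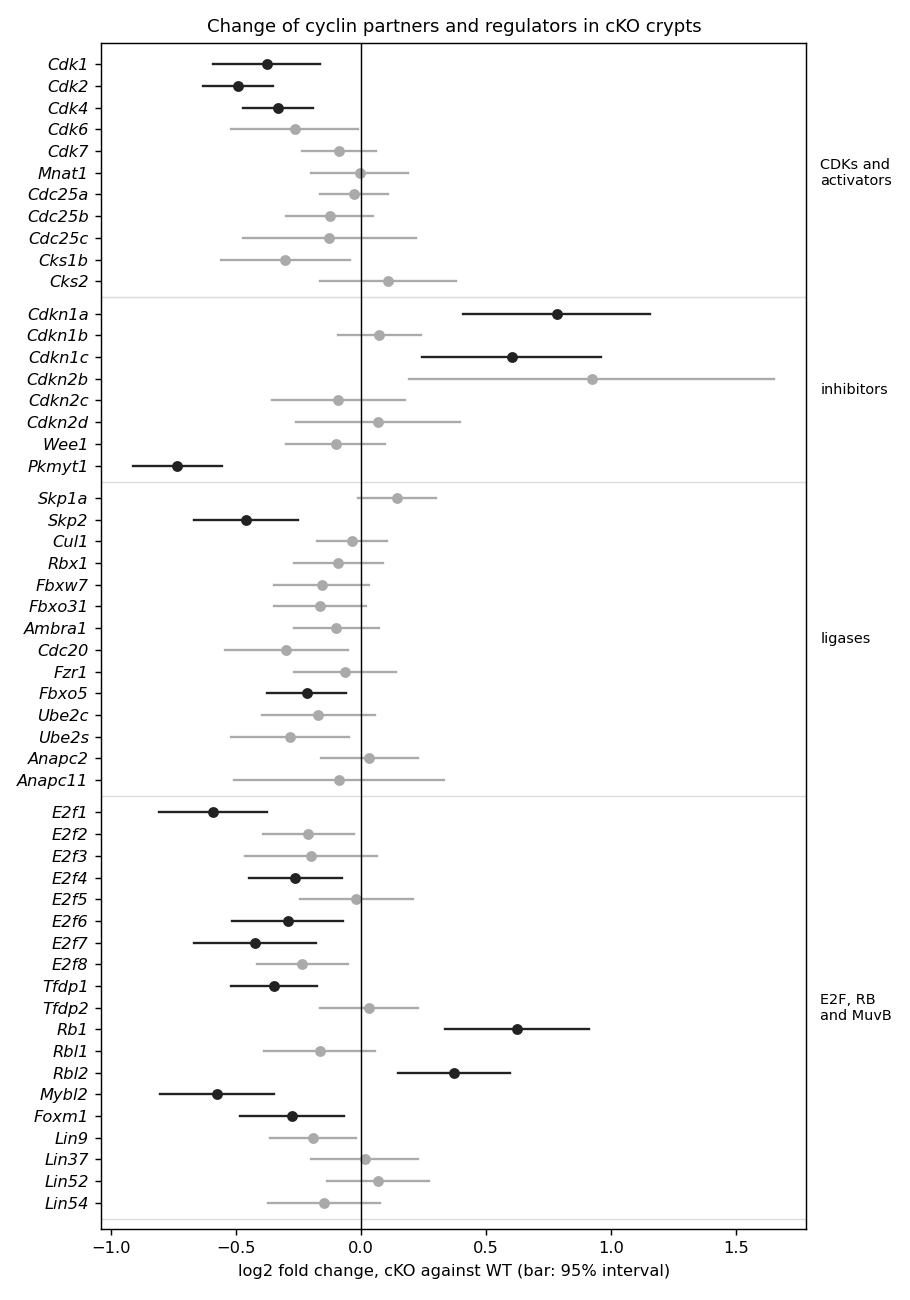
Log2 fold change in cKO against WT crypts (points) with 95% interval (bars) for the tested genes of 4 lists: CDKs and their activators, inhibitors, ubiquitin ligases, and E2F, pocket protein and MuvB factors. Black marks an edgeR adjusted p below 0.05; Cdk1, Cdk2 and Cdk4 lie below 0, and Cdkn1a, Cdkn1c and Rb1 above it.

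Reads of 5 cyclins may be shared with a gene on the opposite strand, since the strand setting is not given in the sources used here. Ccnd3 shares 361 exonic bases with Bysl, a ribosome biogenesis gene, which itself went from 43.74 to 28.74 CPM (log2 fold change −0.61, edgeR adjusted p = 0.00941). The overlapping partners of the other 4 did not pass the threshold. They were LTO1 with Ccnd1 (818 bases, log2 fold change 0.09), Gm43126 with Ccnd2 (374 bases, 0.16), Ints8 with Ccne2 (474 bases, −0.08) and Exosc9 with Ccna2 (431 bases, −0.09). The expected counts of Ccne1, Ccnb2 and Ccnf were whole in 10 of 10 libraries (within 0.005), which leaves no sign of divided reads, while those of Ccnd1, Ccnd2, Ccnd3, Ccne2 and Ccna2 were whole in 0 of 10 and those of Ccnb1 in 1 of 10. Pseudogenes nearly identical to Ccnb1 held at most 6 counts and that of Ccnd3 at most 2 counts in a library.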

How the data were processed

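RNA-seq was analysed from 10 mouse crypt libraries, 5 WT and 5 cKO. The authors aligned reads with STAR and quantified them with RSEM against Ensembl GRCm38, and deposited expected counts, TPM and transcript lengths for each gene of each library; RSEM divides reads that match several genes, so these counts need not be whole. FPKM was not used. The strand setting is not given in the sources used here. Expected counts were rounded and filtered with filterByExpr (minimum count 10, minimum total count 15), scaled by TMM, and tested for genotype with the robust quasi-likelihood test of edgeR 4.0.16 (R 4.3.3) and Benjamini-Hochberg adjustment over 14719 genes, threshold 0.05. Log2 ratios of cyclin pairs used CPM + 0.5. Library totals were 27050455 to 31053622, and reads have no molecular identifiers.

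The members and lists were chosen with earlier results of these data known. Named genes were all 9 cyclins, Arid3a, Cdk1, Cdk2, Cdk4, Cdk6, Cdkn1a and Cdkn1b, up to 4 genes of each list with the largest change past the threshold (mean of at least 1 CPM), and the 2 genes most like each cyclin, leaving out predicted genes. Genes outside this rule are named where they share exonic bases with a cyclin, as Bysl does. Epcam, Vil1, Krt20, Spdef, Ccnb3 and the stem and transit-amplifying markers were named after their values were seen. Alternatives were RLE factors, library size only, no filter, DESeq2 1.42.0, limma-voom and limma 3.58.1 on log2(TPM + 1) and log2(TPM + 0.1), an effective length offset, 1 surrogate variable (sva 3.50.0), the replicate number as a block, leaving out each library, and, chosen after the data were seen, leaving out WT replicates 3 and 4 together. Whether replicate numbers pair the libraries was checked by the correlation of same-numbered libraries, which was −0.157, −0.036, 0.131, −0.141 and −0.152, so they do not. Near-identical copies were sought with BLAST 2.17.0 (at least 90% identity over 300 bases). The scripts were tested on simulated data.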

Additional observations from a re-analysis of the deposited data

Results flagged for a closer look

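One of the cyclin values lay far from the rest of its group. Ccnd2 in cKO replicate 3 was at 560.7 CPM, and its gap to the next cKO library was 0.785 of the range of the group, above Dixon's critical value of 0.71 for 5 samples. Chance flags about 1 in 20 groups, and 20 groups were examined.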

How the results depend on the processing

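Of the 189 values that the 9 cyclins had under 21 alternatives, 168 kept their direction and side of the threshold. Cyclins called numbered 7 under both TPM fits and 2 with 1 surrogate variable (Ccne1 and Ccnf). Leaving out 1 library gave 4 to 5 cyclins, 3007 to 4684 genes, 3 to 5 other cyclins (5 without WT replicate 2), 3 to 4 CDKs and activators, 3 to 4 inhibitors, 1 to 2 ligases and 5 to 8 E2F, pocket protein and MuvB factors. With 4 libraries against 5 the smallest exact permutation p is 0.0159, too large for a few of 36 pairs to pass, so these fits say nothing about the pairs. Genes called numbered 4167, 1297 with 1 surrogate variable and 2143 without WT replicates 3 and 4. With library size only, 5 other cyclins (4 lower, 1 higher), 7 CDKs and activators and 8 ligases were called; that scaling shifted the median of all genes by −0.13 and the share of higher calls from 55.1% to 27.7% (33.8% on TPM, 78.7% with 1 surrogate variable). Ligases numbered 1 with no filter, 5 under both TPM fits, 0 with 1 surrogate variable and 1 without WT replicates 3 and 4. With 1 surrogate variable, 1 inhibitor and 2 E2F, pocket protein and MuvB factors were called; without WT replicates 3 and 4, 5 of the latter. The log2 fold change of Ccnb2 ran from −0.0755 to 0.0466 over the fits that leave out 1 library, turning sign without WT replicate 2 (0.0466), cKO replicate 4 (0.0403) or cKO replicate 5 (0.0083), and the sign turned for Cdkn1b with library size only (−0.0586) and on TPM (−0.0041 with a pseudocount of 1 and −0.004 with 0.1). Ccnf passed the threshold under 8 alternatives. With the replicate block 3052 genes and 4 cyclins were called, among the cyclins Ccnf gaining (adjusted p = 0.0252) and Ccne2 losing (adjusted p = 0.0533) its call. The causes were not tested. The depth of the libraries leaves genes near 1 CPM with large counting errors, while all 9 cyclins had at least 301 counts in each library.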
